A study of Mus musculus with 6 samples.

Results

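The interferon-inducible GTPases of the GBP and IRG families were examined in muscle-infiltrating macrophages (MPs) with and without Cripto. The 10 members, Gbp2, Gbp3, Gbp4, Gbp5, Gbp7, Gbp9, Irgm1, Irgm2, Igtp and Iigp1, were chosen by family name with earlier results of this contrast known, and all 10 were present among the 13008 genes of the table. Their group differences, and the number of them called in fits over all genes, are therefore given as a description and support nothing. RNA-seq was carried out on F4/80+/Ly6C-low MPs sorted from cardiotoxin-injured skeletal muscle on day 5 after injury, with 3 Control (wild type by the labels) and 3 Cripto KO (Tg:LysMCre::Cripto-/-) samples of C57BL/6J males aged 3 months. Cripto is a membrane co-receptor of TGF-beta family ligands. Cre is expressed from the lysozyme M promoter, which is active in the myeloid lineage, and by the study's own account the deletion in MPs was incomplete. The study's text describes the sorted cells as GFP+/Ly6C-low and its controls as LysMCre mice with a GFP reporter, which the labels do not give.

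GBPs are large GTPases of the dynamin superfamily, and IRGs are smaller GTPases. Both are among the most strongly induced genes of macrophages that meet interferon-gamma, through factors that bind GAS elements and through IRF1 and other factors that bind ISRE elements. The proteins gather on the vacuoles of intracellular pathogens and on other membranes. Irgm1, Irgm2 and Igtp are regulators that sit on endomembranes and hold effector IRGs such as Iigp1 in an inactive state, and the LC3 conjugation machinery of autophagy helps to direct effectors to their target.

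Control libraries held 12688968 to 14141773 recovered reads, and Cripto KO libraries 14633880 to 15659847. No member had 3 reads or fewer in any sample. Levels are given as a normalized signal: 0.5 is added to the reads of a gene, and the sum is scaled to 1000000 reads of the normalized library. The macrophage markers were high, with a summed signal of 9151 to 9297 in Control and 8589 to 9632 in Cripto KO samples over 9 of 9 listed genes. A pair of Control libraries stood apart. Control 1 had an Xist signal of 171 against 0.114 to 0.885 elsewhere, although all mice were labelled male. Control 2 had a signal of 11066 for Lyz2, the gene that carries the LysMCre insertion, against 21.2 to 28.3 elsewhere. Control 1 and Control 3, at 25.2 and 21.4, were thus at the level of the Cripto KO libraries, although labelled wild type. The Control libraries were therefore unlike each other in this gene. The ratios of the members are given with and without Control 1 and Control 2 in turn. The libraries were not left out together. Tdgf1, which encodes Cripto, was not analysed here, and the deletion was therefore not checked in these libraries. In bulk samples fewer cells of a type and less RNA per cell cannot be told apart.

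The 4 members on chromosome 3, Gbp2, Gbp3, Gbp5 and Gbp7, were higher in every Control than in every Cripto KO sample. The other 6 members, on chromosomes 5, 11 and 18, overlapped between the groups. The split by chromosome was made after the values were seen. Gbp2 (ENSMUSG00000028270, chr3:142620602-142638008, GRCm38, plus strand), a prenylated GBP that anchors in membranes, had a signal of 58.2, 48.9 and 45.1 in Control 1, 2 and 3, and of 36.7, 34.5 and 31.9 in Cripto KO 1, 2 and 3. The lowest Control value was thus above the highest Cripto KO value. The means were 50.7 ± 6.74 (SD, n = 3) and 34.4 ± 2.39 (SD, n = 3), which is a log2(Control/Cripto KO) of 0.55 with a standard error of 0.11, or 1.47-fold on the scale of log2 means. Gbp3 (chr3:142560026-142573209, plus strand) had a signal of 42.1, 43.6 and 38.5 in Control and of 33.2, 27.7 and 21.5 in Cripto KO samples. Its Cripto KO values were spread more widely than those of Control, 27.5 ± 5.89 (SD, n = 3) against 41.4 ± 2.61 (SD, n = 3). Its log2 ratio was 0.61 (standard error 0.15), the highest among the 10 members.

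Gbp5 (chr3:142493978-142522344, plus strand), a prenylated GBP that promotes assembly of the NLRP3 inflammasome, had a signal of 12.3, 11.9 and 10.6 in Control and of 9.62, 8.67 and 7.27 in Cripto KO samples. This is a log2 ratio of 0.45 (standard error 0.15), with no shared range. Gbp7 (chr3:142530342-142550149, plus strand), which has been linked to the delivery of oxidase and autophagy components to vacuoles, had a signal of 21.8, 17.3 and 16.4 in Control and of 13.9, 12.9 and 10.4 in Cripto KO samples. Its log2 ratio was 0.57 (standard error 0.15). In each of these 4 genes Cripto KO 1 was the highest and Cripto KO 3 the lowest of the Cripto KO samples, and Control 3 was the lowest of the Control samples. The median log2 ratio of the 4 genes was 0.56. It was 0.45 without Control 1, 0.58 without Control 2 and 0.63 without Cripto KO 1. Without Control 1 the ratios of Gbp2, Gbp3, Gbp5 and Gbp7 were 0.45, 0.60, 0.41 and 0.45, and without Control 2 they were 0.58, 0.57, 0.43 and 0.62. Leaving out each of the 6 samples in turn gave ratios of 0.45 to 0.64 for Gbp2, 0.44 to 0.76 for Gbp3, 0.34 to 0.54 for Gbp5 and 0.45 to 0.66 for Gbp7. A share of 10.8% of the 31-base words of Gbp7 transcripts is also found in Gm43802, a low gene inside its span, and 5.52% of those of Gbp3 in Gbp7, so a part of these reads is of uncertain origin.

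**Figure D1:**
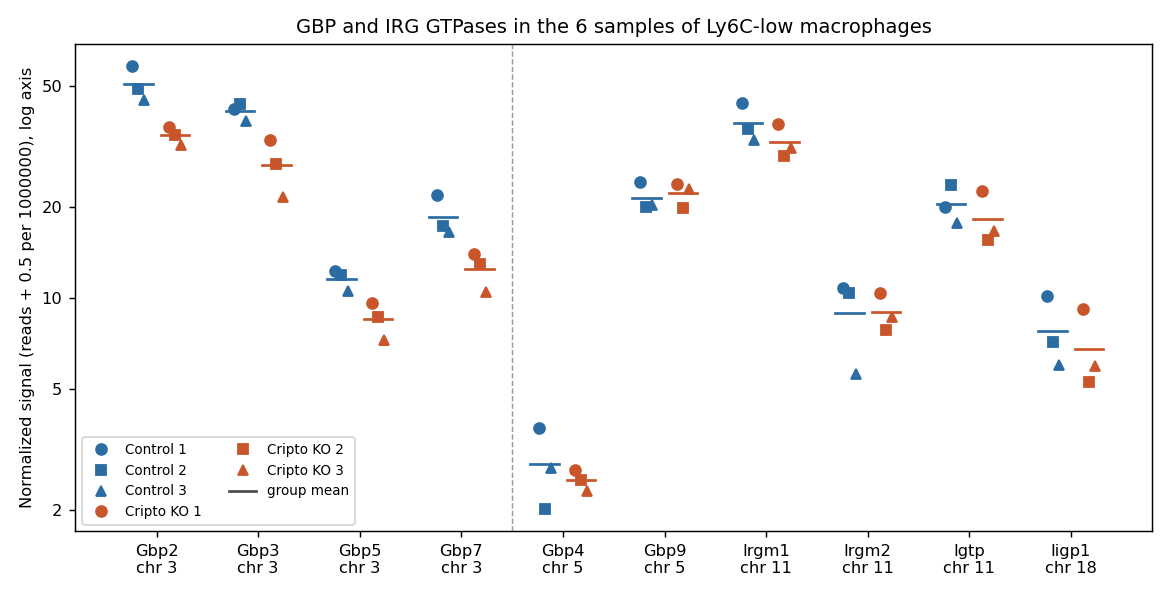
Normalized signal (reads plus 0.5, scaled to 1000000 reads, log axis) of the 10 members in each of the 6 samples, with Control in blue and Cripto KO in orange, a marker shape for each replicate number and bars for group means. Left of the dashed line the 4 chromosome 3 members have no shared range, for example 45.1 to 58.2 against 31.9 to 36.7 for Gbp2, and right of it all 6 members overlap.

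The promoters of these 4 genes are shown for their matches to the motifs of the ISRE and GAS elements described above. RefSeq windows of 300 bases on GRCm38.p6, from 250 bases before to 50 bases after a start site, were searched on both strands for the core of an ISRE, GAAANNGAAA, and for a GAS, TTCNNNGAA. The letters of a match are in capitals, each stretch runs 5′ to 3′ in the direction of transcription, and 15 bases flank the outermost matches where the window allows. A minority of promoters hold these motifs. The ISRE core was found in 3.44% and the GAS in 8.30% of all 32851 windows, and in 3.39% and 6.81% of the 12140 windows of genes in the table.
Gbp2, chr3:142620589-142620628, plus strand: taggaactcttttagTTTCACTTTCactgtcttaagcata
Gbp3, chr3:142559984-142560029, plus strand: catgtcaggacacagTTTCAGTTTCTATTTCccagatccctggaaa
Gbp5, chr3:142496684-142496905, plus strand: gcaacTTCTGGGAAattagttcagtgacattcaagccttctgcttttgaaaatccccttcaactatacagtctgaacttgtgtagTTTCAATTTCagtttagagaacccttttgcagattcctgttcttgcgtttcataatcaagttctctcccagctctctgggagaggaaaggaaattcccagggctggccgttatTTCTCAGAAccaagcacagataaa
Gbp7, chr3:142530215-142530307, plus strand: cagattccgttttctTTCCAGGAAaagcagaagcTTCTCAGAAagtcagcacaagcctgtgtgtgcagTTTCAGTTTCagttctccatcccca

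All 4 promoters hold an ISRE core, read on the opposite strand as its complement. In Gbp2 it begins 59 bases before the start site and in Gbp7 53 bases before it. Gbp3 has a pair of ISRE cores that overlap by 4 bases, the first of them 45 bases before the start site. A further Gbp3 window, at an alternative start, holds neither motif. In Gbp5 the ISRE core lies farther out, 165 bases before the start site. This RefSeq start, at 142496934, lies inside the annotated span given above for Gbp5. The starts used for Gbp2, at 142620663, and for Gbp3, at 142560044, also lie inside the spans of these genes. The ISRE matches of Gbp2 and Gbp5 thus lie before the start used but within the annotated gene. The GAS was matched in 2 places in Gbp5 and in 2 places in Gbp7, and not in the windows of Gbp2 and Gbp3. The 4 genes with no shared range between the groups therefore had the ISRE core in common and differed in the GAS. A match is a description of letters, not of a bound site.

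The 2 members on chromosome 5 did not separate the groups. Gbp9 (chr5:105077630-105139539, minus strand) had a signal of 24.0, 19.9 and 20.3 in Control and of 23.8, 19.9 and 22.9 in Cripto KO samples. The 2 ranges were nearly identical, with a log2 ratio of -0.05 (standard error 0.11). This ratio was -0.14 without Control 1, -0.002 without Control 2 and 0.003 without Cripto KO 1. Gbp4 (chr5:105115767-105139586, minus strand) had the least signal of the members, at 3.72, 2.01 and 2.73 in the Control libraries against 2.70, 2.51 and 2.31 in those of Cripto KO. Its log2 ratio was 0.13 (standard error 0.27), which turned to -0.10 without Control 1 and was 0.35 without Control 2. The annotated spans of Gbp4 and Gbp9 overlap on the same strand, 18.3% of the 31-base words of Gbp9 recur in other genes (9.11% in Gbp8), and the kit used does not mark strand, so the assignment of reads among these genes is uncertain.

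Among the IRG members, the regulator Irgm1 (chr11:48861968-48871683, minus strand) had a signal of 44.1, 36.1 and 33.3 in Control and of 37.6, 29.5 and 31.3 in Cripto KO samples. Cripto KO 1 lay above 2 of the 3 Control samples, and the log2 ratio was 0.20 (standard error 0.13). It was 0.09 without Control 1, 0.23 without Control 2 and 0.31 without Cripto KO 1. Irgm2 (chr11:58199618-58222782, plus strand) had a signal of 10.8, 10.4 and 5.59 in Control and of 10.4, 7.82 and 8.65 in Cripto KO samples. Control 3 was the lowest of all 6 samples, and the log2 ratio of -0.05 (standard error 0.25) became 0.25 when that sample was left out, and -0.22 without Control 1 and -0.20 without Control 2. Igtp (chr11:58199556-58207591, plus strand), also named Irgm3, had a signal of 19.99, 23.5 and 17.7 in Control and of 22.4, 15.5 and 16.6 in Cripto KO samples, with a log2 ratio of 0.17 (standard error 0.16). This ratio was 0.18 without Control 1 and 0.07 without Control 2, and went up to 0.34 without Cripto KO 1. Igtp lies almost wholly within the annotated span of Irgm2 and shares 15.9% of its 31-base words with it, so their separate levels are uncertain.

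The promoters of the 3 chromosome 11 members are shown for comparison with those of chromosome 3. Windows were found for 7 of the 10 members.
Irgm1, chr11:48871420-48871465, minus strand: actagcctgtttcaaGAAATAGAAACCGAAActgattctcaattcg
Igtp, chr11:58199496-58199546, plus strand: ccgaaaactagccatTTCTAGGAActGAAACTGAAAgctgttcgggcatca
Irgm2, chr11:58214887-58214937, plus strand: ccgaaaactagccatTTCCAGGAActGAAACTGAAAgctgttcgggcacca

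Each of the 3 promoters holds an ISRE core, here in the sense direction. In Irgm1 a pair of cores overlaps by 4 bases and begins 30 bases before the start site. The stretches of Igtp and Irgm2 are near copies that differ at 2 of 51 positions, and in each a GAS stands 2 bases before the ISRE core. The start site used for Irgm2, at 58214977, lies inside its annotated span, as does that of Irgm1, at 48871420. All 7 members with a window thus held the ISRE core, both those with and those without a shared range between Control and Cripto KO, and 4 of the 7 held a GAS. Among the other genes of the family, 5 of 9 with a window held the ISRE core.

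**Figure D2:**
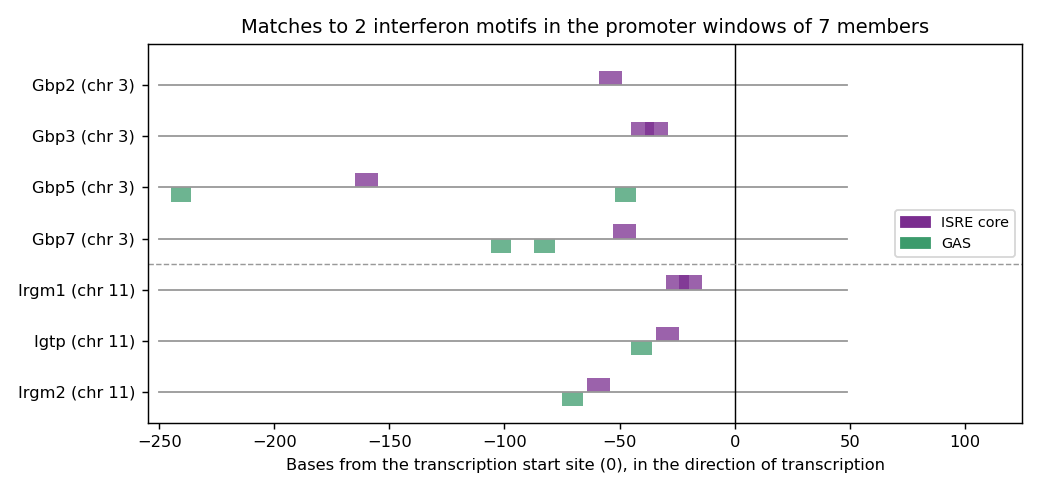
Matches to the ISRE core (purple, above the line) and to the GAS (green, below the line) in the promoter windows of 7 members, as bases from the transcription start site in the direction of transcription. The ISRE core nearest the start begins 24 to 64 bases before it in 6 windows and 165 bases before it in Gbp5.

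The effector Iigp1 (chromosome 18, 60376027 to 60392634, plus strand) had a signal of 10.1, 7.15 and 6.00 in Control and of 9.18, 5.27 and 5.96 in Cripto KO samples. The sample numbered 1 was highest in both groups, and the log2 ratio was 0.20 (standard error 0.26). Its direction was lost without Control 1, at -0.01, and the ratio was 0.24 without Control 2, 0.03 without Cripto KO 2 and 0.43 without Cripto KO 1.

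The median log2 ratio of the 6 members outside chromosome 3 was 0.15, and -0.05 without Control 1, 0.15 without Control 2 and 0.24 without Cripto KO 1. Over all 10 members the median was 0.20, and 8 of 10 ratios were positive, beside a median of 0.01 and 6839 positive ratios over all 13008 genes. The median of the 10 members was 0.14 without Control 1, 0.29 without Control 2 and 0.38 without Cripto KO 1. Groups without a shared range, Control higher, were seen in 4 of 10 members and in 8.02% of all genes (1043 genes), and the reverse in 0 of 10 members and in 6.43% of all genes. The contrast was used to choose the members, so nothing is read from these shares. In the limma fit over all genes 0 of the 10 members had an adjusted p under 0.05, as did 0.131% of all genes (17 genes), and 4 members, those of chromosome 3, had an unadjusted p under 0.05, as did 8.59% of all genes (1117 genes, 598 of them higher in Control). The edgeR quasi-likelihood test on the recovered reads also called 0 of 10 members and 0.131% of all genes. DESeq2 on these reads called 2 members, Gbp2 and Gbp3, both higher in Control, and 0.593% of the 12485 genes to which it gave an adjusted p.

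**Figure D3:**
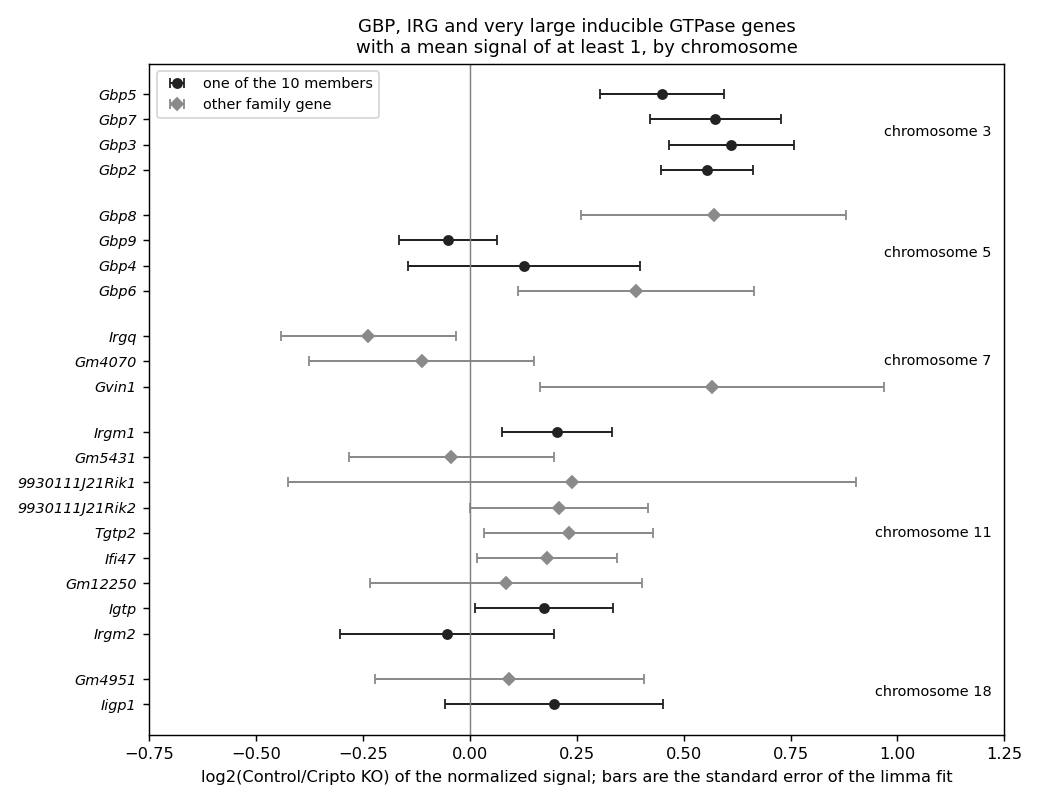
log2(Control/Cripto KO) of the normalized signal, with the standard error of the limma fit, for members (black circles) and other family genes (grey diamonds) with a mean signal of at least 1, ordered by chromosome and position. The 4 members of chromosome 3 lie between 0.45 and 0.61, and the members elsewhere between -0.05 and 0.20.

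The chromosome 3 members lie within 144 kb. Of the genes in the table within 1 Mb of them, Pdlim5 had a log2 ratio of 0.02, Gtf2b of 0.12 and Pkn2 of 0.15, and their groups overlapped. Kyat3, at a signal of 0.694 to 1.55, had a ratio of -0.55, also with overlap, and Gm43802 was at 3 reads or fewer in 5 of 6 samples, so no ratio is given. Gbp2b, the remaining family gene of this cluster in the table, lies between Gbp3 and Gbp2 and encodes a prenylated GBP. It had a signal of 0.379 to 0.847 and a log2 ratio of 0.33 (standard error 0.50), which was 0.01 without Control 1.

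Of 18 further genes listed for the family, 16 were in the table, and 0 of the 16 had an adjusted p under 0.05 in limma (0 at an unadjusted p under 0.05, and 0 in DESeq2). Their groups overlapped in all 16, whereas 8.02% of all genes had no shared range with Control higher, and 6.43% with Cripto KO higher. Of the 16 ratios 12 were positive, with a median of 0.22, beside 6839 of 13008 over all genes. The mean signal was under 1 in 4 of the 16. On chromosome 5, Gbp6 had a signal of 21.02, 14.3 and 9.92 in Control and of 13.5, 8.11 and 12.2 in Cripto KO samples (log2 ratio 0.39, standard error 0.28, and 0.12 without Control 1). Gbp8 had a signal of 11.6, 7.98 and 6.08 in Control and of 8.41, 3.93 and 5.20 in Cripto KO samples (log2 ratio 0.57, standard error 0.31, and 0.33 without Control 1). The ratio of Gbp8 was as large as those on chromosome 3, but its values were more widely spread. The effector Tgtp2 had a ratio of 0.23, and of 0.06 without Control 1. Ifi47 had a ratio of 0.18, and of 0.09 without Control 2. Both overlapped. Gvin1, a very large interferon-inducible GTPase, had a signal of 35.9 in Control 1 and of 8.79 to 27.4 in the other 5 samples.

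Levels of different genes were compared as signal per kilobase of the median transcript length. In Control MPs Gbp3 was highest at 25.2 ± 1.59 per kb (SD, n = 3), followed by Gbp2 at 20.2 ± 2.68 (SD, n = 3), Irgm1 at 17.4 ± 2.58 (SD, n = 3) and Igtp at 11.1 ± 1.60 (SD, n = 3). These 4 genes came first in each of the 6 samples. The values of Gbp2 and Irgm1 overlapped among the Control samples, whereas those of Gbp3 and Gbp2 and of Irgm1 and Igtp did not. Gbp9 came next at 6.05 ± 0.642 per kb (SD, n = 3), with each Control value above the highest of Gbp7, and the Control values of Gbp7 (mean 4.57) were above those of Gbp5 (mean 3.79). Gbp5, Gbp4 at 3.75, Iigp1 at 2.65 and Irgm2 at 2.57 per kb overlapped with their neighbours in this order. In Cripto KO MPs Gbp3 at 16.8 ± 3.59 (SD, n = 3), Irgm1 at 15.1 ± 1.97 (SD, n = 3) and Gbp2 at 13.7 ± 0.951 per kb (SD, n = 3) overlapped, and Irgm1 stood above Gbp2 in 2 of 3 samples. The places of several members, among them Gbp3, Gbp4 and Gbp7, depend on the length used. With the longest transcript of Gbp4, 4.54 kb against a median of 0.752 kb, its Control level was 0.621 per kb, the lowest of the 10. With the longest transcript of Gbp3 the Control level was 15.4 per kb, below Gbp2 at 20.2 and Irgm1 at 16.7. With that of Gbp7 it was 3.30 per kb, below Gbp5 at 3.79. Irgm2 at 2.53 and Iigp1 at 2.49 per kb also changed places.

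The members also ranked the samples alike within a group, a feature that the group contrast does not use. Cripto KO 1 was the highest of the 3 Cripto KO samples in 10 of 10 members, and in 35.4% of all genes. Control 1 was the highest of the Control samples in 8 of 10 members (37.5% of all genes), and Control 3 was the lowest in 8 of 10 members (29.6% of all genes). The mean of the log2 values of the members, each centred on its own mean over the 6 samples, was 0.35, 0.12 and -0.06 in Control 1, 2 and 3 and 0.08, -0.23 and -0.27 in Cripto KO 1, 2 and 3. Cripto KO 1 thus lay above Control 3 for the members as a whole. For the chromosome 3 members the Control means were 0.42, 0.27 and 0.14 and the Cripto KO means -0.09, -0.24 and -0.50. For the other 6 members the Control means were 0.31, 0.02 and -0.18 and the Cripto KO means 0.19, -0.22 and -0.12. The correlation of each member with the mean of the other 9 over the 6 samples went from 0.36 for Gbp9 to 0.96 for Irgm1, as a description of samples that share library preparation and group.

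**Figure D4:**
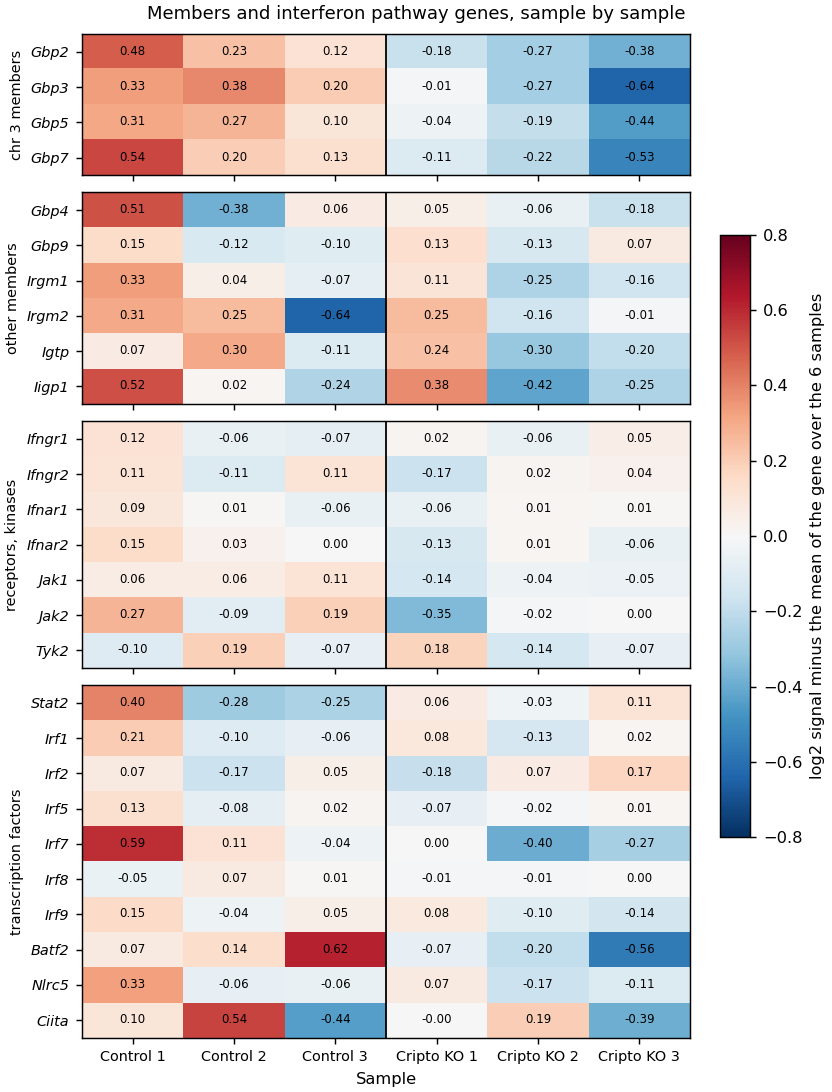
log2 signal of members, receptors and kinases, and transcription factors in each of the 6 samples, minus the mean of the gene over the samples (colour and printed number). The chromosome 3 members are positive in all 3 Control samples and lowest in Cripto KO 3, from -0.64 to -0.38.

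The genes whose log2 values followed the mean of the members most closely, among 7723 genes with a mean signal of at least 10, were Oas1a (r = 0.996 over 6 samples), Atad1, Marcks, AW112010, Ube2l6, Chchd5, Sp100, Cmtm7, Ddx24 and Irf7 (r = 0.962). Oas1a, a sensor of double-stranded RNA, had a signal of 145.6, 120.4 and 104.8 in Control and of 114.5, 91.1 and 91.4 in Cripto KO samples. Of these 10 genes, Oas1a, Ube2l6, Sp100 and Irf7 are textbook interferon-induced genes. The share of such genes among all 7723 was not counted, so nothing is read from this. The ranking by log2 values also includes the group contrast. By deviations from the group means, which leave the contrast out, the closest were C1ra (r = 0.997), Atad1, Slfn5, Phf11b, Myef2, Oas1a, Nmd3, Spopl, Zdhhc21 and AW112010 (r = 0.985). Oas1a, Atad1 and AW112010 stood in both lists. The correlation takes no account of size, since Atad1 went only from 39.0 to 41.4 over the 6 samples. With 7723 genes compared such values of r are a description.

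The upstream genes of the pathway were taken from lists of their roles. Of the ligands and the cytokines that induce them, Ifng was among the 6 of 10 genes not in the table, and Ifnb1 had a signal of 1.07, 1.17 and 3.06 in Control and of 2.00, 1.45 and 1.07 in Cripto KO samples. None of the 4 ligand genes in the table had a p under 0.05 in limma, adjusted or not (0 in DESeq2). The interferon-gamma receptor chains had log2 ratios near 0, of -0.01 (standard error 0.07) for Ifngr1 and 0.08 (standard error 0.09) for Ifngr2. Jak1, the kinase of both interferon receptors, had a signal of 181, 181 and 187 in Control and of 158, 169 and 168 in Cripto KO samples, a log2 ratio of 0.15 (standard error 0.06). Of the 7 receptor and kinase genes, 0 had an adjusted p and 1, Jak1, an unadjusted p under 0.05 in limma, the latter beside 8.59% of all genes.

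Irf7, which amplifies the type I interferon response, had a signal of 463.3, 332.6 and 298.3 in Control and of 308.2, 233.2 and 255.3 in Cripto KO samples, with a ratio of 0.44 (standard error 0.16, and 0.26 without Control 1) and overlapping groups. Batf2, a factor induced in activated macrophages, had a ratio of 0.55 (standard error 0.23). Irf1 and Irf8 were close to equal, with ratios of 0.02 for both. Of 11 transcription factors, 0 had an adjusted p and 3 an unadjusted p under 0.05, the latter beside 8.59% of all genes. Of 9 feedback inhibitors 0 passed at either, and Socs1, which blocks the receptor kinases, had a ratio of 0.07 (standard error 0.17).

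Downstream, 0 of 17 further interferon-gamma targets had an adjusted p under 0.05 in limma. Of the 17 ratios 14 were positive, beside 6839 of 13008 over all genes. B2m, the light chain of MHC class I, had a ratio of 0.21 (standard error 0.08), Icam1 of 0.17 and Cxcl10 of 0.19, which was 0.33 without Control 1 and 0.05 without Control 2. Cxcl9, a chemokine for T cells, had a signal of 14.6, 13.2 and 10.2 in Control and of 7.08, 8.32 and 5.48 in Cripto KO samples. It was named after its values were seen, because it was the 1 pathway gene with an adjusted p under 0.05 in DESeq2. Its log2 ratio was 0.87 (standard error 0.19, adjusted p = 0.28, limma). The MHC class II genes Cd74 and H2-Aa had ratios of -0.04 and -0.05, and of -0.22 and -0.26 without Control 1.

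The list for LC3 conjugation held 14 autophagy genes, not all of which conjugate LC3. Of these 14, 0 had an adjusted p under 0.05 and the ratios were between -0.18 and 0.22. Tax1bp1, an autophagy receptor, had a ratio of 0.22, Map1lc3a of 0.20 and Atg16l1, of the conjugating complex, of -0.18. Of the 6 prenylation genes, whose products add and process the lipid anchor of GBPs such as Gbp2, 0 passed, and Fnta, the subunit shared by farnesyl and geranylgeranyl transferases, had a Control signal of 26.5, 29.9 and 25.8 and a Cripto KO signal of 34.8, 35.0 and 32.0 (log2 ratio -0.31, standard error 0.09). Icmt, the methyltransferase of the last step, had a ratio of 0.22. Of 10 inflammasome genes 0 passed. Nlrp3 had a signal of 232.4, 142.4 and 150.9 in Control and of 116.8, 129.1 and 121.4 in Cripto KO samples (log2 ratio 0.48, standard error 0.16, and 0.26 without Control 1). Casp4 had a ratio of 0.37 and Nlrp1b of -0.40, the latter -0.71 without Control 1 and -0.22 without Control 2. Over all 93 genes of the pathway and family lists, 0 had an adjusted p under 0.05 in limma and edgeR, beside 0.131% of all genes, and 1 in DESeq2. At an unadjusted p under 0.05, 13 genes were higher and 1 lower in Control, which is 14.0% and 1.08% of the 93, beside 4.6% and 3.99% of all genes. Of the 93 ratios 74 were positive, with a median of 0.09, beside 0.01 over all genes. Without a shared range, 16 genes were higher in Control and 2 in Cripto KO, beside 8.02% and 6.43% of all genes. The genes share their samples, and some were known from earlier results of these data, so nothing particular to the lists is read from these shares.

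Markers of other cells moved with the members in part. Over 5 of 6 listed muscle fiber genes the summed signal of Control 1, 2 and 3 was 62.0, 31.5 and 28.7, and that of Cripto KO 1, 2 and 3 was 45.2, 15.9 and 11.8, so that the sample numbered 1 was highest in both groups, as for the members. The fibroblast genes went the other way, from 458.8 to 481.0 in Control and from 539.9 to 591.4 in Cripto KO samples over 6 of 6 genes. The Ly6C-high monocyte genes summed to 87.7 to 117.1 in Control and 98.6 to 112.8 in Cripto KO samples over 7 of 7 genes, with the sample numbered 1 again highest in both groups. Most of the sum of Cripto KO 1 came from Ccr2, at 69.4. The genes did not all rank so, since Chil3, at 13.6, was lowest in that sample. Of 16 lymphocyte and NK cell markers 3 were in the table, among them Cd4, which macrophages also express, and Cd79a, which was near 0. Cd3e, Ncr1 and Gzmb were not among them. Dendritic cell genes summed to 9.46 to 11.9 in Control and 9.77 to 10.3 in Cripto KO samples. Endothelial genes summed to 35.9 to 44.1 in Control and 34.4 to 40.6 in Cripto KO samples. Neutrophil genes summed to 106.4 to 114.9 in Control and 101.2 to 111.1 in Cripto KO samples. Most of the neutrophil sum came from Csf3r in every sample, for example 98.2 in Control 1 and 99.3 in Cripto KO 1. S100a9 and Retnlg had 0 reads in all samples, S100a8 had a signal of 0.694 to 1.55, and Ly6g was not among the measured genes. The neutrophil sum is therefore mainly a reading of Csf3r. The part of all these other cells in the values of the members was not tested.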

How the data were processed

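The authors trimmed the reads with Cutadapt 1.7.1, quantified them on the mouse transcriptome (GRCm38, Ensembl annotation) with RSEM 1.2.20 and normalized them with limma; the labels also name edgeR. The values they deposited, 1 for each gene in each sample, are a normalized signal. Here 100.0% of 78048 values gave whole reads within 0.01 read. log2 values were fitted without a pseudocount in limma 3.58.1 (R 4.3.3, eBayes with trend) over 13008 genes, with Benjamini-Hochberg adjustment and no covariate, after the fit had been tested on simulated data. Count tests (edgeR 4.0.16, DESeq2 1.42.0) were run on the recovered reads. Members and gene lists were chosen with earlier results of these data known.

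All members, genes of the upstream and family lists, and the 3 genes with the largest absolute ratio at a mean of at least 10 in other lists could be named, with the 10 genes most similar to the members. Some genes were named outside this rule, among them Cxcl9, Cd74, H2-Aa and some cell type markers. Some of the listed genes are not reported here. The labels number the replicates, and the study calls them biological. The numbers were not used to pair samples. Positions are from GENCODE on GRCm38, promoters from RefSeq on GRCm38.p6. Figures were drawn with matplotlib 3.10.9 in Python 3.11.15.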

Additional observations from a re-analysis of the deposited data

How the results depend on the processing

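The number of genes with an adjusted p under 0.05 was 17 in limma, 6 after quantile normalization, 31 with robust eBayes and 74 in DESeq2. With a replicate block it was 2. Same-numbered samples had correlations of their deviations of -0.495, -0.0496 and -0.244. The 3 deviations in a group are tied to each other, so these values cannot show whether a number marks a shared litter, day or batch. The block called 0 of 10 members. Leaving out 1 sample gave between 5 genes (without Cripto KO 2) and 31 genes (without Control 1). The median of the 10 members was 0.38 without Cripto KO 1, and 0.13 to 0.38 over all 6 such fits. DESeq2 called 2 members and 1 pathway gene where limma called 0. The cause of these changes was not tested. The chromosome 3 median, an alternative chosen after seeing the data like that of the other members, went from 0.45 to 0.65 over 15 alternatives, and that of the other members from -0.05 to 0.26. With 3 samples in each group small ratios are not resolved, and the standard errors of Gbp4, Irgm2 and Iigp1 were 0.25 to 0.27.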
